A study of Homo sapiens with 16 samples.

Results

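The state of RNAPII before release from DRB was examined in 4 of the 16 averaged DRB/GRO-seq profiles, those taken at 0 min. They were chosen by their labels alone, and they compare RECQL5-depleted (KD) with RECQL5-expressing (WT) cells in clones 15 and 18, with 1 profile for each genotype and clone. All 4 came from HEK293T-Rex, a kidney-derived human cell line with a tetracycline repressor. All 4 held an shRNA against endogenous RECQL5 together with an shRNA-resistant RECQL5 copy that is expressed only in doxycycline. Doxycycline at 0.2 ng/ml maintained the copy in WT, and KD cultures had been without it for 4 days, so that doxycycline differed between the groups along with RECQL5. Each clone was a line grown from a single colony. All 4 cultures were held in DRB at 100 µM for 3.5 hr, and 0 min is the point before its removal. The sample labels give the dose in mM and describe the time as a doxycycline time, and both were read here as the published methods give them.

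DRB inhibits the CDK9 kinase of P-TEFb, which RNAPII needs to pass from initiation near the promoter into productive elongation. During the block, polymerases that had already left the promoter run on to the ends of genes, while newly initiated polymerases are held close to the transcription start site (TSS). GRO-seq labels the RNA of engaged polymerases with a brominated nucleotide in isolated nuclei, so that its reads are taken to mark where polymerases sat. The paper also reports a low level of stable mRNA in these samples. It left exons out when it called wave fronts, so not all depth need come from engaged polymerases. Human promoters commonly start transcription in both directions, which can give a second peak upstream of the TSS. The origin of the upstream peak in these profiles was not tested. RECQL5 is a helicase that binds RNAPII directly and is known as a factor that acts on elongation. The profiles are averages over genes, so they hold no value for RECQL5 itself or for any marker of the cell line, and neither could be checked.

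Each profile holds the mean normalized read depth over a fixed set of long genes, at single base pair steps that begin 2 kb before the TSS and end 120 kb after it. Depth is the number of reads, extended to 250 bp, that cover a position in a gene on average, after each library was scaled to 20000000 reads. The libraries were of 20160941 reads in WT against 24747866 in KD of clone 15, and of 19452343 in WT against 24026167 in KD of clone 18. The reads behind the first 1 kb were estimated from the mean depth. They numbered 1054330 in WT against 144331 in KD of clone 15, and 843499 in WT against 711292 in KD of clone 18. Their counting error was at most 0.263% of the mean depth, so the spread between clones was by far the larger error. KD of clone 15 stood apart from the other 3 profiles near the TSS, and each result is therefore given for each clone. The 14 tested comparisons of KD with WT are also given without that profile where leaving it out changes the direction or moves the value by over 1.5 times. Other measures, such as the separation of the peaks and the ratio of their heights, are not given without it and may depend on it. With 2 profiles against 2, the smallest p an exact permutation test can give is 0.33. The tests measure the spread between these samples only. None of the 14 comparisons of KD with WT could pass 0.05, and the lowest adjusted p over the 14 (exact permutation tests, two-sided, Benjamini-Hochberg) was 0.519.

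Under the block, KD had less depth than WT on both sides of the TSS in both clones, by very different amounts. Over the first 1 kb the mean depth was 31.3 in WT against 3.49 in KD of clone 15. In clone 18 it was 25.9 in WT and 17.7 in KD. KD therefore held 11.2% of the WT depth in clone 15 and 68.3% in clone 18, log2 differences of -3.16 and -0.55 (mean -1.86 ± 1.85, SD, n = 2, exact permutation p = 0.333). Both KD values lay below both WT values, but the spread between the clones was as large as the mean difference. Without KD of clone 15 the log2 difference of KD from the WT mean was -0.69. In the 2 kb upstream of the TSS the depth was 11.4 in WT against 1.69 in KD of clone 15, and 10.4 in WT against 7.81 in KD of clone 18. These log2 differences were -2.75 and -0.42, so KD was lower on the upstream side too, by -0.48 without KD of clone 15. An averaged depth cannot tell fewer cells or genes with a peak from a lower peak in each.

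**Figure D1:**
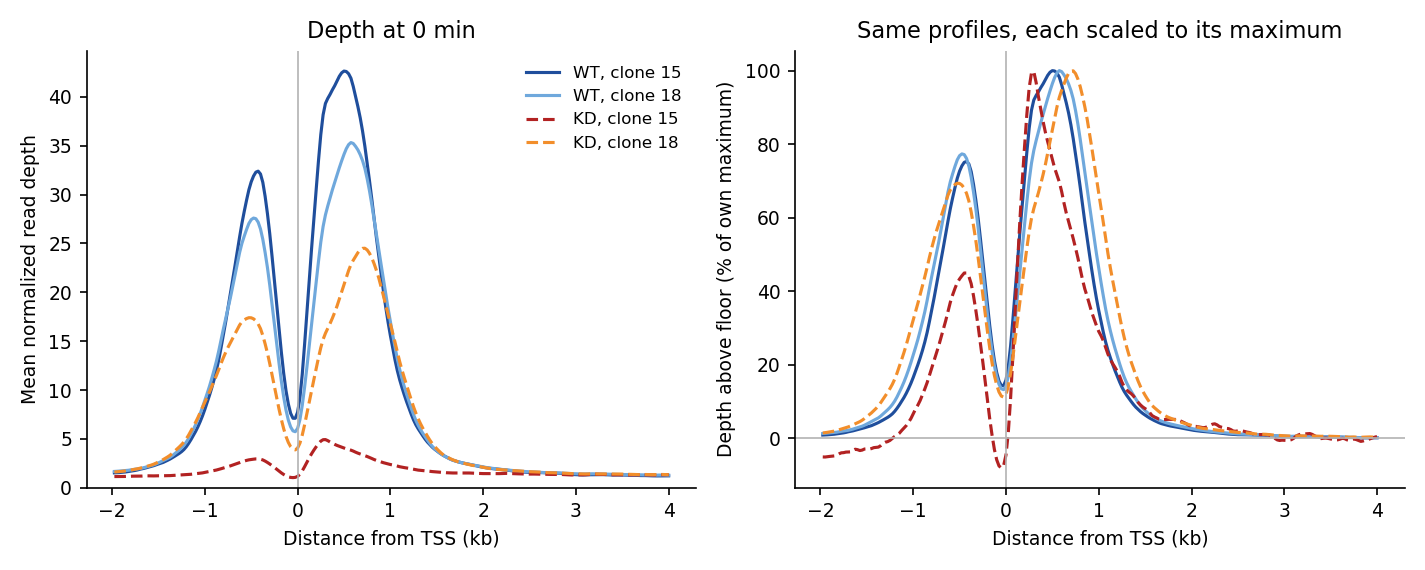
Mean normalized read depth (y axis, left) around the TSS (x axis, distance in kb) for the 4 profiles at 0 min, and the same profiles with the floor removed and each scaled to its own maximum (y axis, right, percent), 1 line per profile, 50 bp running means. The KD maxima are 4.95 and 24.5 against 42.6 and 35.3 in WT, and after scaling the clone 15 KD peak lies nearest to the TSS and the clone 18 KD peak farthest from it.

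Both clones had a peak on each side of the TSS with a trough between them. The downstream peak, the highest 50 bp running mean within 2 kb, reached 42.6 in WT against 4.95 in KD of clone 15 and 35.3 in WT against 24.5 in KD of clone 18. The log2 differences of these heights were -3.11 and -0.53. The upstream peak reached 32.4 in WT against 2.96 in KD of clone 15, and 27.6 in WT against 17.4 in KD of clone 18, log2 differences of -3.45 and -0.66. The mean log2 difference of the downstream height was -1.82, or -0.66 without KD of clone 15, and that of the upstream height was -2.06, or -0.78 without it. Heights above the floor were also compared within a profile, where the floor is the lowest value that a 5 kb running mean takes past 5 kb. The upstream peak stood at 0.753 of the downstream one in clone 15 WT and 0.774 in clone 18 WT, against 0.451 and 0.694 in KD (exact permutation p = 0.333). Both KD ratios were below both WT ratios, so by height the upstream peak was the more reduced of the pair in each clone.

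The upstream share of the depth gave a different picture in clone 18. Of the depth above the floor between 2 kb upstream and 5 kb downstream, 36.9% lay upstream of the TSS in clone 15 WT and 38.2% in clone 18 WT. The share was 21.5% in KD of clone 15 and 37.7% in KD of clone 18, which lay between the WT values. Without KD of clone 15 the KD value was 0.132 percentage points above the WT mean, against -7.94 with it. In KD of clone 15 the outer part of the upstream window was itself below the floor. Its depth from 2 to 1.5 kb upstream was 1.19 and its floor 1.33, so that these positions counted as negative. With the floor taken upstream of the TSS instead, the share in clone 15 still differed by -14.5 percentage points, against -15.3.

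The trough between the peaks lay close to the TSS in every profile. Its lowest point was at -37 bp in clone 15 WT, -32 bp in clone 18 WT, -50 bp in KD of clone 15 and -30 bp in KD of clone 18, where negative positions are upstream. The depth there was 7.05 and 5.72 in WT, against 1.05 in KD of clone 15 and 3.88 in KD of clone 18. Relative to the height of the downstream peak above the floor, the trough stood at 14.2% and 13.2% in WT against 11.2% in KD of clone 18. In KD of clone 15 it was below the floor, at -8.01%.

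Where the peaks lay did not follow genotype in the same way in the 2 clones. The downstream maximum was at 512 bp in WT against 290 bp in KD of clone 15, and at 580 bp in WT against 716 bp in KD of clone 18. KD minus WT was thus -222 bp in clone 15 and 136 bp in clone 18, and the KD positions fell on either side of the WT positions (exact permutation p = 1). Without KD of clone 15, the KD maximum lay 170 bp beyond the WT mean and the KD peak was 96 bp wider at 50% of its height. Upstream, the maximum was at -429 bp in WT against -437 bp in KD of clone 15, and at -470 bp in WT against -516 bp in KD of clone 18. The separation of the peaks was 941 bp in WT against 727 bp in KD of clone 15. In clone 18 it was 1050 bp in WT and 1232 bp in KD.

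Clone 18 showed the same pattern on every flank. In KD of this clone, the downstream peak fell to 50% of its height above the floor at 1101 bp, against 977 bp in WT. It fell to 25% at 1300 bp against 1170 bp and to 10% at 1544 bp against 1419 bp. The distance from the maximum to the 10% point hardly differed, at 828 bp in KD and 839 bp in WT. On the TSS side, the 50% point was at 215 bp in KD and 168 bp in WT. The peak of clone 18 KD therefore sat farther out as a whole, and its width at 50% was 886 bp against 809 bp. The upstream peak of clone 18 was farther out and wider too, with its outer 50% point at -973 bp in KD and -841 bp in WT and a width of 745 bp against 620 bp. These values rest on 1 KD and 1 WT profile, and the WT profiles themselves reached the downstream 50% point at 901 and 977 bp.

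In clone 15 the peak of KD was narrower at 50% of its height but had a longer foot. The downstream 50% point was at 767 bp in KD and 901 bp in WT, and the width was 638 bp against 771 bp. The order turned lower on the flank. At 25% the points were 1072 bp in KD and 1088 bp in WT, at 10% 1419 bp and 1352 bp, and at 5% 1858 bp and 1590 bp. From the maximum to the 10% point was 1129 bp in KD against 840 bp in WT, the longest of the 4 profiles. The 5% point was the only downstream flank position measured at which both KD profiles (1858 and 1827 bp) lay beyond both WT profiles (1590 and 1651 bp, exact permutation p = 0.333). At these low levels the depth of clone 15 KD is close to its floor, and 5% of its height above the floor is a small depth.

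The position that divides the depth above the floor into equal amounts on its left and right, taken from 2 kb upstream to 5 kb downstream, depends less on the maximum. It was 310 bp in WT against 406 bp in KD of clone 15, and 337 bp in WT against 408 bp in KD of clone 18. KD lay farther downstream by 96 and 71 bp (mean 83.5 ± 17.7 bp, SD, n = 2, exact permutation p = 0.333), and the groups did not overlap. In clone 15 this rested on the upstream share. With the depth downstream of the TSS only, the position was 563 bp in WT against 533 bp in KD of clone 15, and 625 bp in WT against 722 bp in KD of clone 18. The differences were then -30 and 97 bp (exact permutation p = 1), and the KD positions again fell on either side of WT.

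Exons were compared with the profiles because they vary with distance from the TSS in any set of genes. In protein-coding genes whose longest transcript spans 30 kb or more (release 44 of GENCODE lifted to GRCh37, which is the build of the reads, though the annotation is more recent), exons covered 77.3% of the first 250 bp, 34.9% of 250 to 500 bp and 17.7% of 500 to 1000 bp. Averaged over the 250 bp of an extended read, exon coverage was 44.6% at the maximum of clone 15 KD, against 18.1% to 25.6% at the maxima of the other profiles. Of the same genes, 9.29% had the start of another protein-coding gene on the opposite strand within 1 kb upstream. The upstream depth is an average that includes them.

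The loss of depth in KD covered a narrower zone in clone 18 than in clone 15. In clone 15, KD was below WT from the first position of the 500 bp running mean, at -1750 bp, to 3142 bp. In clone 18, KD was below WT from -1124 bp and first rose above it at 1105 bp, with a last position below WT at 3123 bp. Between 1 and 1.5 kb the depth was 7.84 in WT against 1.94 in KD of clone 15, whereas in clone 18 it was 8.44 in WT and 9.03 in KD. The log2 difference over this window was -2.02 in clone 15 and 0.10 in clone 18. From 1.5 to 1 kb upstream, the differences were -1.66 and 0.07. Of the windows within the zone, clone 18 KD was lowest relative to WT between 250 and 500 bp, at -0.79, and nearest to WT between 0.75 and 1 kb, at -0.21.

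Beyond the peaks the depth decayed steeply in all 4 profiles. Between 1 and 2 kb, the depth above the floor fell by 50% every 249 bp in WT against 320 bp in KD of clone 15, and every 233 bp in WT against 220 bp in KD of clone 18. From 1.5 to 2 kb the depth was 2.72 and 2.73 in the WT profiles and 2.74 in KD of clone 18, with 1.53 in KD of clone 15. From 3 to 5 kb it was 1.25 in WT against 1.33 in KD of clone 15 and 1.32 in WT against 1.35 in KD of clone 18, so all 4 profiles lay between 1.25 and 1.35 there. Over 1 to 5 kb as a whole, the log2 difference had opposite signs in the clones, as the 1 to 1.5 kb windows did, and without KD of clone 15 it was 0.086. The lowest 5 kb window wholly past 5 kb, which sets the floor, was centred at 8224 and 8058 bp in WT and at 7527 and 8033 bp in KD. In KD of clone 15 this was almost the first window allowed, so the position does not show where its depth stopped falling.

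Farther from the TSS the order of the groups was the opposite of that at the promoter. Of the annotated long genes, the longest transcript still ran in 82.8% in the bin from 40 kb. This share was 59.8% in the bin from 60 kb and 37.2% in that from 100 kb. Depth at these distances thus includes positions past the ends of many genes. Of the 122 bins of 1 kb, both KD profiles lay below both WT profiles in 2 bins (1.64%), those on either side of the TSS. Both KD profiles lay above both WT profiles in 111 bins (91.0%), among them all 84 between 4 and 88 kb. In each clone taken alone, KD was above the WT of that clone in 115 of 115 bins beyond 5 kb. Bins of a profile share its library and scaling, so they are not replicates. Over 5 to 40 kb the depth was 1.26 in WT against 1.57 in KD of clone 15, and 1.32 in WT against 1.40 in KD of clone 18. KD was at 124% and 106% of WT, log2 differences of 0.31 and 0.09 (mean 0.20 ± 0.16, SD, n = 2, exact permutation p = 0.333). Without KD of clone 15 the difference was 0.12.

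**Figure D2:**
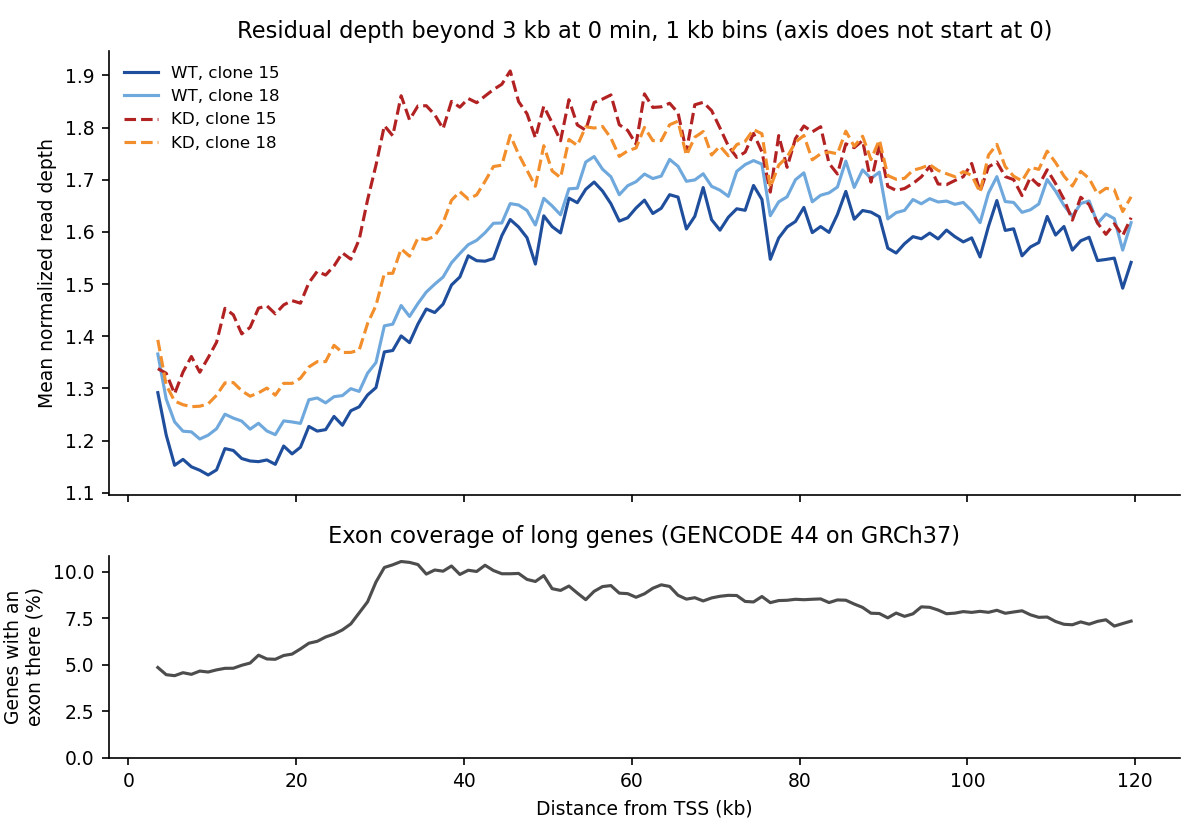
Mean normalized read depth in 1 kb bins from 3 to 120 kb (upper y axis, not starting at 0) for the 4 profiles at 0 min. Below it is the percent of long genes with an exon of any protein-coding gene at the same distance (lower y axis). The x axis is the distance from the TSS in kb. Both KD lines run above both WT lines from 4 to 88 kb, and the clone 15 KD line rises most steeply near 30 kb, where exon coverage also rises.

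The excess of KD was not even with distance from the TSS. In clone 15 the log2 difference was highest, at 0.41, in the bin from 32 kb, where KD was 32.9% above WT. In clone 18 it was highest, at 0.12, in the bin from 34 kb, where KD was 8.59% above WT. The median over bins was 0.30 in clone 15 and 0.09 in clone 18 from 5 to 40 kb. It was 0.16 and 0.06 from 40 to 80 kb, and 0.09 and 0.05 from 80 to 120 kb. Over the last 20 kb the depth was 1.58 in WT against 1.67 in KD of clone 15, and 1.65 in WT against 1.71 in KD of clone 18 (mean log2 difference 0.07 ± 0.02, SD, n = 2). There both clones were nearly alike.

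**Figure D3:**
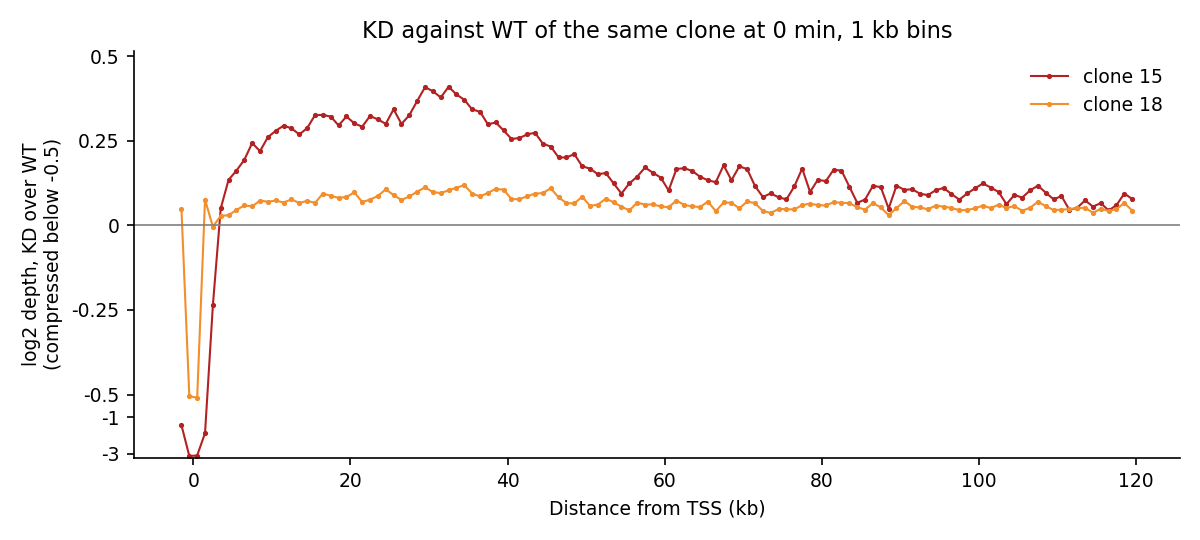
Log2 of KD depth over WT depth of the same clone (y axis, compressed below -0.5) in 1 kb bins against distance from the TSS (x axis, kb) at 0 min, 1 line per clone. Clone 15 falls to -3.21 beside the TSS and clone 18 to -0.55, and beyond 5 kb both lines stay above 0 with maxima of 0.41 and 0.12.

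The scaling ties the promoter and the gene body together, because each library has the same total. Shares of the reads were estimated from the mean depth and the 8359 genes left after trimming. Reads of trimmed genes are left out, and reads where windows of neighbouring genes overlap can count more than once. By this estimate the averaged window from 2 kb upstream to 3 kb held 10.2% in WT against 1.67% in KD of clone 15. In clone 18 it held 9.04% in WT and 6.84% in KD. From 3 to 120 kb it held 29.3% in WT against 33.1% in KD of clone 15, and 30.5% in WT against 31.9% in KD of clone 18. The size of the gene-body excess varied with the scaling. The mean over the whole window was lower in KD, at 1.71 against 1.94 in WT of clone 15 and 1.90 against 1.94 in clone 18. Setting these means equal could therefore only raise KD, and its direction there is no test of the excess. When each profile was set to the same mean over the whole window, the mean log2 difference over 5 to 40 kb was 0.31 in place of 0.20, and KD was above WT without overlap in 117 bins in place of 111. When each was set to the same depth over 110 to 120 kb, the mean difference was 0.14 and the bins numbered 69. With that scaling the difference was 0.25 in clone 15 and only 0.038 in clone 18. Over 100 to 120 kb the difference was 0.17 with the first of these scalings and 0.0094 with the second, which equalizes most of that window by construction, against 0.07 as deposited. The ratio of the first 1 kb to 5 to 40 kb does not depend on the scaling. It was 24.8 in WT against 2.22 in KD of clone 15, and 19.7 in WT against 12.7 in KD of clone 18 (log2 differences -3.48 and -0.64, mean -2.06 ± 2.01, SD, n = 2, exact permutation p = 0.333), and without KD of clone 15 the log2 difference was -0.80.

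Residual depth and exon coverage varied together with distance from the TSS in 1 kb bins, with the highest correlation in clone 15 KD, and only weakly at finer scale. In 5 kb windows wholly past 5 kb, exon coverage was lowest in the first one, centred at 7.5 kb, at 4.55%. In 1 kb bins it was lowest in the bin from 5 kb, at 4.41%. The floors of the profiles were sought in the same windows, so their closeness to 7.5 kb is partly built in. Its highest 10 kb mean, 10.2%, was centred at 35.4 kb, nearer to the TSS than the highest depth of any profile. Across the 115 bins of 1 kb from 5 to 120 kb, the correlation of depth with exon coverage was 0.67 in clone 15 WT and 0.63 in clone 18 WT. It was 0.95 in KD of clone 15 and 0.70 in KD of clone 18. Over the 35 bins from 5 to 40 kb alone, all 4 profiles correlated highly. The values there were 0.949 in clone 15 WT, 0.938 in clone 18 WT, 0.987 in KD of clone 15 and 0.953 in KD of clone 18. These are descriptions across positions, which share the library, the gene set and a smooth trend with distance. Fine variation was therefore examined after removing the 2 kb running mean from both, over 111000 positions from 7 kb on. The correlations were then weak, at 0.113 in clone 15 WT, 0.117 in clone 18 WT, 0.251 in KD of clone 15 and 0.135 in KD of clone 18. For every 10 percentage points of exon coverage the depth rose by 0.245 in clone 15 WT, 0.232 in clone 18 WT and 0.272 in KD of clone 18. In KD of clone 15 it rose by 0.660. The 4 profiles at 10 min gave 0.184, 0.134, 0.197 and, for KD of clone 15, 0.609, so the high value recurred in a separate library of the same clone and genotype.

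Multiplying these fine slopes by exon coverage gives the depth that would follow exons if the slope held over the whole window. Over 5 to 40 kb this came to 0.173 in WT against 0.467 in KD of clone 15, and 0.164 in WT against 0.193 in KD of clone 18. With it subtracted, the depth was 1.09 in WT against 1.10 in KD of clone 15 and 1.15 in WT against 1.21 in KD of clone 18. The mean log2 difference was then 0.04 in place of 0.20, and KD of clone 15 lay between the WT profiles (exact permutation p = 0.667). After the subtraction both KD profiles lay above both WT profiles in 2 bins of 122. With clone 18 as the only KD profile, KD lay above both WT profiles in 119 bins, before the subtraction and after it. Near the TSS the slope did not carry over to first exons in clone 15 KD, where the subtracted depth reached -2.76. The subtraction was therefore not used to describe the peaks. The paper presumes that contaminating mRNA gives the background signal it saw over exons. The source of the exon-following depth was not tested here.

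**Figure D4:**
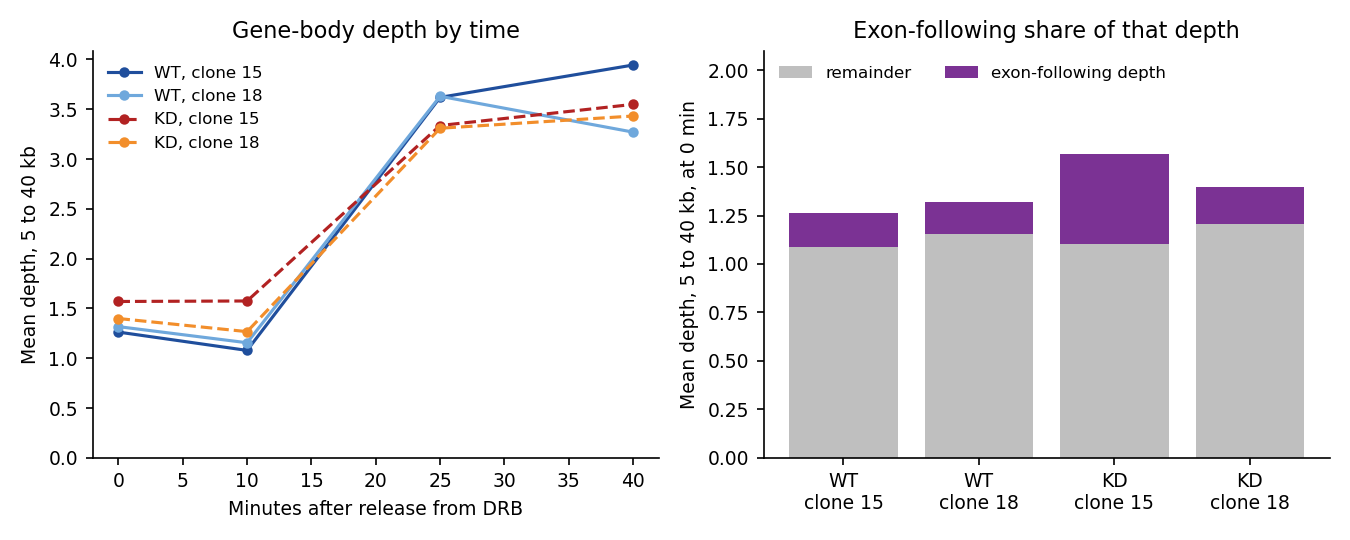
Left, mean depth over 5 to 40 kb (y axis) against minutes after release (x axis), 1 line per clone and genotype. Right, the same depth at 0 min (bars, y axis from 0) divided into the part that follows exon coverage and the remainder, where KD of clone 15 has 0.467 of exon-following depth and the other profiles 0.164 to 0.193.

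All 4 profiles rose from the floor to a broad maximum and then declined slightly. The highest 10 kb running mean was 1.66 at 57.3 kb in WT and 1.86 at 43.0 kb in clone 15 KD, and 1.71 at 59.2 kb in WT and 1.78 at 61.1 kb in clone 18 KD. The maximum of clone 15 KD was thus the nearest to the TSS and the highest. Relative to the floor the maxima were close, at 1.45 and 1.41 times in WT and 1.39 and 1.41 times in KD. From 40 to 120 kb the depth changed by -0.406% of its mean per 10 kb in WT against -1.68% in KD of clone 15. In clone 18 it changed by -0.161% in WT and -0.407% in KD. KD declined more in each clone, by 1.27 and 0.25 percentage points per 10 kb (mean difference -0.76 ± 0.73, SD, n = 2, exact permutation p = 0.333), although KD of clone 18 and WT of clone 15 were practically equal. Without KD of clone 15 the difference was -0.12 percentage points. Exon coverage also declined, from 9.43% at 40 to 60 kb to 7.51% at 100 to 120 kb. The share of long genes whose longest transcript still ran fell from 82.8% in the bin from 40 kb to 30.5% in that from 119 kb. How far this shaped the gradient was not tested. With the exon-following depth subtracted, the gradient was 0.113% in WT against -0.633% in KD of clone 15 and 0.341% in WT against 0.131% in KD of clone 18, so that 3 of the 4 profiles no longer declined.

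In shape beyond 5 kb, KD of clone 18 was nearly as close to WT as the WT profiles were to each other. Across the 115 bins the correlation was 0.996 between the WT profiles, 0.996 between WT of clone 15 and KD of clone 18, and 0.994 between WT and KD of clone 18. KD of clone 15 correlated with the other profiles at 0.791 to 0.844. These coefficients describe bins of averaged profiles over the same genes and carry no test.

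The residual gene-body depth of the blocked state was compared with that after release, to show how far it lies below a transcribed gene. Over 5 to 40 kb the 4 profiles averaged 1.39 ± 0.134 (SD, n = 4) at 0 min. At 10 min the depth was 1.27 ± 0.218, a difference of -0.118 that was within the spread (exact permutation p = 0.429), with the value higher than at 0 min in 1 of 4 series. At 25 min it was 3.47 ± 0.175, higher in 4 of 4 series by 2.09 (exact permutation p = 0.029, adjusted over the 3 times 0.043). At 40 min it was 3.55 ± 0.287, higher in 4 of 4 by 2.16 (exact permutation p = 0.029, adjusted 0.043). Paired by clone and genotype, the exact p was 0.125 for both, the smallest that 4 pairs allow. The 4 series are KD and WT of only 2 clones, so both tests treat as independent series that share a clone. The 4 profiles at 0 min include both genotypes, and the KD excess over WT at 0 min, 0.307 in clone 15 and 0.0815 in clone 18, was small beside the rise on release.

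The low peaks of clone 15 KD at 0 min were also present in the library from 10 min. The downstream maximum there was 5.16 at 311 bp, against 38.3 at 774 bp in WT of the same clone. In clone 18 the maxima at 10 min were 40.6 at 723 bp in WT and 28.2 at 715 bp in KD. At 10 min the KD peak of clone 18 was thus no longer farther out than that of WT, in contrast to the 716 and 580 bp at 0 min. The difference between the times was not tested, since each clone has 1 pair of profiles at each.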

How the data were processed

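Of 16 DRB/GRO-seq profiles, the 4 at 0 min were compared, and the 12 later ones were used only where named. The authors called bases with CASAVA 1.8.2, mapped single-end reads of 36 bp to hg19 using BWA 0.5.9 with at most 3 alignments each, and removed rRNA and blacklisted reads. They extended reads to 250 bp, scaled libraries to 20000000 reads and averaged the depth of 8529 genes by a mean trimmed by 0.01. The deposited signal is this mean normalized coverage. Whether the depth was counted by strand is not given in the sources used here. Total scaling lowers every position of a library that holds more reads elsewhere, and trimming drops 85 genes at either extreme of each position.

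Library sizes were computed from the step between values, with 8359 genes left after trimming. Windows, peaks (50 bp running means), bins, exon slopes and exact permutation tests were computed in Python 3.11.15 (numpy 2.4.6, pandas 2.3.3, matplotlib 3.10.9). Peak positions, the upstream share and the gradient were checked on 20 simulated profiles with known answers. The tolerances were wider than some of the differences reported here, and no simulated gradient was negative. Peak heights and widths were not checked in this way. The clone numbers pair the samples because each clone is 1 cell line. Deviations from the group means correlated at -0.92 between KD and WT of a clone over all 122 bins and at 0.495 beyond 5 kb. Measures and windows were chosen with earlier results of these data known. No gene is named, because the profiles keep no values of single genes. Alternatives were other windows, smoothing, floors and scalings, a block for clone, and omission of either clone.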

Additional observations from a re-analysis of the deposited data

Results flagged for a closer look

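The clones differed in direction in 3 of the 14 comparisons of KD with WT. The effect of KD on the position of the downstream peak was -358 bp in clone 15 relative to clone 18, that on the peak width -210 bp, and that on the depth from 1 to 5 kb -0.75 on the log2 scale. With 1 pair of profiles per clone these differences between clones were not tested.

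Among 17 measures at 0 min, 4 had a sample whose gap to the other 3 exceeded Dixon's 95% critical value for 4 samples, where chance alone would give about 0.85. In each case the sample was KD of clone 15. Its upstream share of the depth above the floor was 21.5%, its gradient from 40 to 120 kb was -1.68% per 10 kb, its depth over 10 to 40 kb was 0.964 of that at 100 to 120 kb and its depth rose by 0.0660 per percent of exon coverage. The 17 measures come from the same 4 profiles and are not independent.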

How the results depend on the processing

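Across the alternatives, 113 settings kept the direction and the side of the threshold or stayed within the spread of the clones, 10 reversed a direction, 6 lost a call and 4 moved a count or value. The 113 are no measure of stability. They include the pairings of KD with WT, whose mean cannot differ from the unpaired one, and the exon-subtracted peak height. No comparison of KD with WT could cross the threshold in any setting. With the replicate block, pairing KD and WT by clone, the values were those of the unpaired comparison, such as 0.20 for the gene-body depth, with p of 0.5 at the least, and no call changed. Crosswise pairing gave 0 calls. With 2 pairs the exact p cannot fall below 0.5, so neither pairing could have given a call. The alternatives that left out only KD of clone 15, subtracted the exon-following depth, counted the downstream side only or set the bins to the same far depth were chosen after seeing the data.

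The mean KD minus WT peak position of -43 bp ranged from -222 to 136 bp with a clone left out, and was 170 bp without KD of clone 15. It was 93.5 bp with the exon-following depth subtracted, which is not a valid alternative for the peaks because the subtracted depth of clone 15 KD falls to -2.76 near the TSS. The width difference of -28 bp ranged from -133 to 77 bp, was 96 bp without that profile, -16.5 bp with the floor taken upstream and 31.5 bp at 25% of the height. The log2 difference over 1 to 5 kb, -0.33, ranged from -0.70 to 0.05 and was 0.086 without it. The upstream peak shift of -27 bp ranged from -46 to -8 bp and was -66.5 bp without it, and the upstream share difference of -7.94 percentage points ranged from -15.3 to -0.55 and was 0.132 without it. The log2 difference at 100 to 120 kb, 0.07, was -0.11 after the exon subtraction. The gradient difference of -0.76 was -1.15 over 20 to 120 kb and -0.54 over 60 to 120 kb. The bins with KD above WT numbered 69 when scaled to 110 to 120 kb and 2 after the exon subtraction, and those with KD below numbered 6 with that scaling. The rises at 25 min (2.09) and 40 min (2.16) had the same size when paired but an exact p of 0.125, and ranged from 2.06 to 2.11 and from 1.99 to 2.33 with a clone left out, where 2 against 2 cannot reach the threshold. The cause of these changes was not tested. Counting errors cover reads as independent molecules only, so they set no limit on other errors of a library.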
